A study of Mus musculus with 12 samples.

Results

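Mesothelial marker genes were examined in the newborn mouse bladder: Msln, Muc16, Gpm6a, Lrrn4, Wt1, Upk3b, Bnc1 and Nkain4. The members were 8 of the 18193 genes that had a probe set with a single gene symbol, and they were measured by 10 of the 45101 probe sets, with 2 probe sets each for Gpm6a and Upk3b. They were taken up with the lower levels of several of them in SMGA/EGFP bladders already known, so their differences in any comparison that holds the SMGA/EGFP arrays are given as a description, without a test.

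The RNA came from entire bladders collected at postnatal day 1 from mice on the FVB/N background, unpooled, and was hybridised to 12 one-colour arrays; the labels give every animal as male. There were 3 arrays of SMGA/EGFP mice, which carry enhanced green fluorescent protein under the smooth muscle gamma actin (Actg2) promoter, 3 arrays of SMAA/EYFP mice, which carry enhanced yellow fluorescent protein under the smooth muscle alpha actin (Acta2) promoter, and 6 arrays of wild-type mice. Both reporters are driven in smooth muscle, and the labels say that transgenic sires were mated to FVB/N dams, so sire, litter and genotype cannot be told apart. The database record numbers list the SMGA/EGFP arrays and wild type 1 to 3 first, and the SMAA/EYFP arrays and wild type 4 to 6 after them. These 2 stretches of 6 arrays are called the first and the second run, although the labels do not say what the order stands for.

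The mesothelium is a single layer of flat epithelial cells of mesodermal origin that lines the body cavities and covers the organs in them, the dome of the bladder included. Its cells make a slippery surface with mucins and surface proteins, and they share with other epithelia keratins and tight junctions while keeping mesodermal transcription factors. Mesothelin (Msln) is a surface protein anchored by a lipid tail that binds the mucin Muc16, the carrier of the CA125 antigen. Wt1 is a zinc finger transcription factor of the developing kidney, gonad and mesothelium. Gpm6a and Lrrn4 are membrane proteins that were first described in neurons, and Bnc1 is a zinc finger protein of keratinocytes and germ cells. Nkain4 is a membrane protein that interacts with the sodium pump. Upk3b is a member of the uroplakins, the family of proteins that form the plaques of the urothelium.

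The genes lie on different chromosomes in assembly GRCm38.p6, except for Lrrn4, Wt1 and Nkain4, which are on chromosome 2 at 132866686 to 132894010, 105126529 to 105173614 and 180934766 to 180954937. Gpm6a is on chromosome 8, Muc16 on chromosome 9, Bnc1 on chromosome 7, Msln on chromosome 17 and Upk3b on chromosome 5. The RefSeq promoter table held windows of 250 bases before to 50 bases after a start for 5 of the 8 members, with 2 starts for Gpm6a. The windows of Gpm6a (the first start), Lrrn4, Muc16 and Bnc1 are shown because these 4 genes had the lowest levels relative to wild type in SMGA/EGFP, and that of Upk3b because it did not share them. Each is written 5′ to 3′ on the gene's strand, and capitals mark the matches to the motifs named after them.
Gpm6a, chr8:54779184-54779483, plus strand: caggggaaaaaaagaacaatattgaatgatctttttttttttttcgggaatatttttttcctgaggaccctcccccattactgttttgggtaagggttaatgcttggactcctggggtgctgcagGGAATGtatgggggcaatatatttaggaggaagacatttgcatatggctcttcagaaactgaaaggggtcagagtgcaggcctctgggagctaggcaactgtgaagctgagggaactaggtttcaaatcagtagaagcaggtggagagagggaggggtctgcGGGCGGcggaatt
Lrrn4, chr2:132880813-132881112, minus strand: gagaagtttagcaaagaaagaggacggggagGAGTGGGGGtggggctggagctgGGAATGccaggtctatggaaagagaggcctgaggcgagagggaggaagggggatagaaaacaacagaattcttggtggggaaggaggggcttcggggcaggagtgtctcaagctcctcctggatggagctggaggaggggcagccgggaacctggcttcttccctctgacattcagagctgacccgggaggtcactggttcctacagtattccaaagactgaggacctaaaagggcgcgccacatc
Muc16, chr9:18674554-18674853, minus strand: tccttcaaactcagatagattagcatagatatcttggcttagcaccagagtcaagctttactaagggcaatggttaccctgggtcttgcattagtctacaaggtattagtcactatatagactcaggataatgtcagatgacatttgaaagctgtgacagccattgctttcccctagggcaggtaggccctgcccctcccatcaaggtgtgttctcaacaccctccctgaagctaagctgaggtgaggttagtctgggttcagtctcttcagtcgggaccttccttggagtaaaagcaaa
Bnc1, chr7:81992250-81992549, minus strand: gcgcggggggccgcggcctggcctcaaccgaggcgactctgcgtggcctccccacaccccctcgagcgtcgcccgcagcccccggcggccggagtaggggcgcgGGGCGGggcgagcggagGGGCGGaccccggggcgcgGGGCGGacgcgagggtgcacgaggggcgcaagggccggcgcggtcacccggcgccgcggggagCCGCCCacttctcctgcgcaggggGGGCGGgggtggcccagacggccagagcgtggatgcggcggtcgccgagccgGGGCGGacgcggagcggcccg
Upk3b, chr5:136038246-136038545, plus strand: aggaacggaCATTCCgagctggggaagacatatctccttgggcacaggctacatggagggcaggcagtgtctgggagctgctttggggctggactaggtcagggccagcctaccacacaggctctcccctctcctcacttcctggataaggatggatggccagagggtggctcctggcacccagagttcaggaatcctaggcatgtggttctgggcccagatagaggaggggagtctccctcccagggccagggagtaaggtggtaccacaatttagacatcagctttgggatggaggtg

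Of 4 motifs searched on both strands, CATTCC, of the TEAD type, was found in the first Gpm6a window and in those of Lrrn4 and Upk3b, and 14.7% of all 32851 windows of the table held it. GNGTGGGNG, of the WT1 and EGR type, was found once, in Lrrn4, against 14.3% of all windows. GGGCGG, of the Sp1 type, had 6 matches in Bnc1 and 1 in the first Gpm6a window, against 35.7% of all windows. TATAAA was found in the second Gpm6a window, which is not shown, and in 13.6% of all windows. No window shown holds overlapping matches, and the Muc16 window held none of the 4. No motif was common to the 4 windows of the lowest genes, and these letters say nothing of which factors act there.

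Each deposited value is a linear intensity of 1 probe set, and the values were tested as log2(intensity + 16) after quantile normalization. Median intensity per array ran from 229.39 to 305.94. On 1 array the profile went against the label: Xist read 29604 on wild type 4 and 80.1 to 250.4 on the other 11 arrays, and Eif2s3y, a gene of the Y chromosome, read 26.7 there and 3284 to 5096 on the others. That array is kept, and several values are also given without it. All 10 member probe sets passed the filter on low values (a mean above log2 8.02 over the 12 arrays), which left 22518 probe sets in the tests. In SMGA/EGFP alone the means of Gpm6a (7.83 and 6.75), Lrrn4 (7.33), Muc16 (7.25) and Bnc1 (7.20) lay below that cut. These probe sets passed through their levels in the other groups.

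Gpm6a, Lrrn4, Muc16, Bnc1 and Msln were lower on every SMGA/EGFP array than on every wild-type array, while Wt1 and Upk3b overlapped. Gpm6a read 258, 166 and 258 by its brighter probe set in SMGA/EGFP bladders, against 2505, 2485 and 1409 in wild type of the second run and 1185, 828 and 1343 in wild type of the first run. The highest SMGA/EGFP array was therefore far below the lowest wild-type array. The log2 difference from all wild type was -2.74 ± 0.34 (limma SE, n = 3 and 6), a level 6.68-fold lower, and against the wild type of the same run, with the run as a block in the fit, it was -2.27 ± 0.30, or 4.82-fold lower. The second Gpm6a probe set read 86.9, 112.3 and 87.1 in SMGA/EGFP and 339 to 1144 in wild type, with a log2 difference of -2.69 ± 0.38. Both probe sets of the gene thus gave the same size of difference.

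Lrrn4, a membrane protein with leucine-rich repeats, read 211, 91.7 and 181 in SMGA/EGFP, against 1737, 1778 and 1063 in second-run wild type and 798, 610 and 958 in first-run wild type. SMGA/EGFP 2 was the lowest of the 12 arrays. The log2 difference was -2.75 ± 0.36 from all wild type and -2.26 ± 0.34 with the run as a block. Muc16, the large surface mucin, read 124, 194 and 117 in SMGA/EGFP, against 875, 926 and 707 in second-run wild type and 413, 469 and 536.5 in first-run wild type. Here SMGA/EGFP 2 was the highest of its group, the opposite of its place for Lrrn4. The log2 difference was -2.06 ± 0.30 from all wild type and -1.63 ± 0.26 with the block.

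Bnc1 read 128, 139.9 and 139 in SMGA/EGFP, against 1025, 1208 and 1066 in second-run wild type and 490.3, 431 and 474 in first-run wild type. The 3 sets of arrays did not overlap, and every second-run wild-type array was above every first-run one. The Bnc1 log2 difference was -2.31 ± 0.35 from all wild type and -1.67 ± 0.22 with the block, so the comparison against the same run was the smaller. Msln read 369, 582 and 633 in SMGA/EGFP, against 1465, 1815 and 1783 in second-run wild type and 711, 1388 and 1126 in first-run wild type. Its groups were close, since wild type 1 lay near SMGA/EGFP 3. The Msln log2 difference was -1.41 ± 0.30 from all wild type and -1.05 ± 0.30 with the block, which is 2.65-fold and 2.07-fold lower.

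Nkain4 differed by less and did not overlap with wild type either. It read 1318, 1567 and 1583 in SMGA/EGFP and 1652 to 2511 (median 1899) in wild type, with a log2 difference of -0.44 ± 0.16 from all wild type and -0.40 ± 0.19 with the block. Wt1, the mesodermal transcription factor, read 697, 306 and 554 in SMGA/EGFP and 353 to 897 (median 747) in wild type. The Wt1 groups overlapped widely, and the log2 difference of -0.47 ± 0.28 was -0.17 without SMGA/EGFP 2 and -0.67 without SMGA/EGFP 1. Upk3b read 13811, 15632 and 14892 by its brighter probe set in SMGA/EGFP and 13672 to 19968 (median 16513) in wild type, a log2 difference of -0.13 ± 0.10 from all wild type and 0.01 ± 0.09 with the block. The other Upk3b probe set was at -0.14 ± 0.13 and -0.02 ± 0.14, and both probe sets overlapped with wild type; without wild type 4 each was at -0.07.

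Over the 10 probe sets, 7 were lower without overlap in SMGA/EGFP than in wild type, and the share of all 22518 tested probe sets with this pattern was 1.61%. The same 7 were lower without overlap against first-run wild type, where the share was 3.18%. The median log2 difference of the 10 was -1.74 (-1.34 with the block), and that of all tested probe sets was -0.01 in both fits. Because the members were taken up with this comparison known, nothing is read from these counts. In bulk tissue, fewer mesothelial cells and less RNA per cell cannot be told apart.

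**Figure D1:**
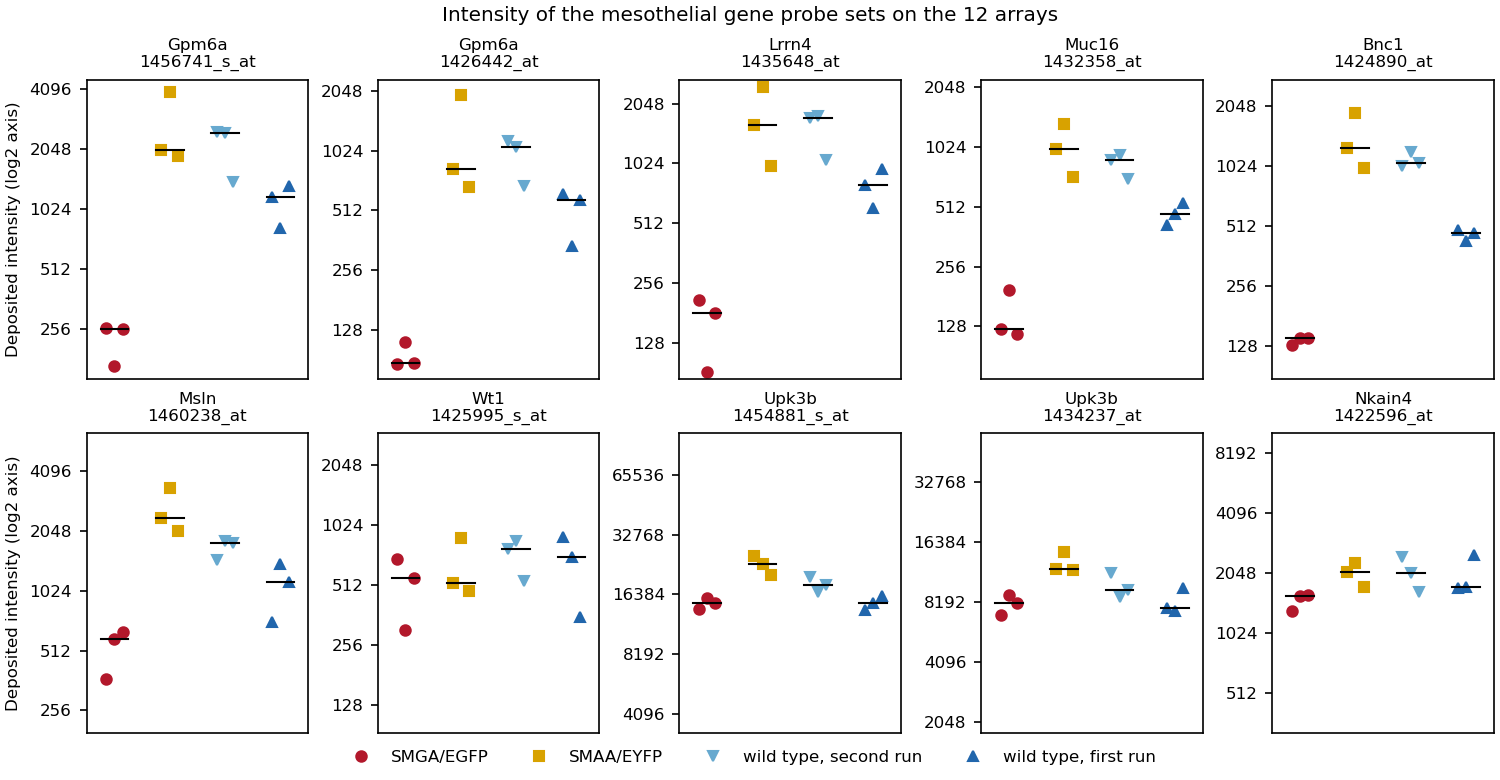
Deposited intensity (log2 axis) of the 10 member probe sets on the 12 arrays, each panel spanning the same number of doublings, with points for single arrays and a bar at the median of each set. In the upper row the SMGA/EGFP points lie below all others and first-run wild type lies between them and second-run wild type, while for Wt1 the sets overlap.

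Wild-type bladders themselves differed in these genes between the runs of record numbers. All 10 probe sets had a higher mean in second-run than in first-run wild type, with a median log2 difference of 0.79, against 0.02 over all tested probe sets, and 7 of the 10 did not overlap between the runs, against 7.46% of all tested probe sets higher without overlap. Bnc1 had a log2 difference of 1.28 ± 0.22 (SE, n = 3 and 3; limma adjusted p = 0.441), 2.43-fold higher in the second run. Lrrn4 was at 0.98 ± 0.34 (limma adjusted p = 0.488), Gpm6a at 0.94 ± 0.30 and 0.98 ± 0.36, Muc16 at 0.87 ± 0.26 and Msln at 0.71 ± 0.30 (0.41 without wild type 1). Upk3b was at 0.28 ± 0.09 and 0.25 ± 0.14 (0.20 and 0.13 without wild type 4), Wt1 at 0.27 ± 0.33 and Nkain4 at 0.07 ± 0.19.

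None of the members passed the threshold of limma adjusted p under 0.05 in this comparison, and neither did any other probe set (0% of those tested), although 7 of the 10 and 1836 of all 22518 (8.15%) had an unadjusted p under 0.05. These counts rested on wild type 3: without it 430 probe sets passed, 147 higher and 283 lower, and Bnc1 was among them at 1.36 (limma adjusted p = 0.0206), while no other member passed. Without any other single array 0 passed. Markers of pelvic ganglion neurons moved the other way between the same arrays, with 9 of 9 tested genes lower in second-run wild type and a median log2 difference of -1.98. Their summed level, as the mean log2 deviation from the 12-array mean, was -1.55 to -1.07 in second-run and -0.43 to 1.78 in first-run wild type, against 0.39 to 0.72 and -0.17 to 0.07 for the 8 mesothelial genes. Their part in the result was not tested.

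The other cell types differed less between the runs of wild type. The median log2 difference was 0.14 over 10 smooth muscle markers, 0.19 over 8 leukocyte markers, 0.14 over 9 endothelial markers, 0.10 over 3 adipocyte markers, -0.01 over 9 fibroblast markers and -0.07 over 12 urothelial markers. None of these genes passed the threshold. Upk1a, Upk1b, Upk2 and Upk3a, the uroplakins among the urothelial markers, were at 0.08 ± 0.16, 0.02 ± 0.07, -0.01 ± 0.17 and -0.07 ± 0.10, beside the 0.28 ± 0.09 of Upk3b.

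SMAA/EYFP bladders held the highest levels of most members, but no member passed the test against wild type. Msln read 2366, 3375 and 2046 in SMAA/EYFP, against 711 to 1815 (median 1426) in wild type. The groups did not overlap, and the log2 difference was 0.94 ± 0.30 (SE, n = 3 and 6; limma adjusted p = 0.991), or 0.58 ± 0.30 with the run as a block (limma adjusted p = 0.967). Upk3b read 25457, 23427 and 20415 by its brighter probe set in SMAA/EYFP, against 13672 to 19968 in wild type, again without overlap. Its log2 difference was 0.48 ± 0.10 (limma adjusted p = 0.761) and 0.34 ± 0.09 with the block (limma adjusted p = 0.967). The second Upk3b probe set gave 0.51 ± 0.13 and 0.38 ± 0.14 in the same fits, and its arrays did not overlap either.

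The genes that were lowest in SMGA/EGFP were close to second-run wild type in SMAA/EYFP. Gpm6a read 2027, 3963 and 1906 in SMAA/EYFP, against 2505, 2485 and 1409 in second-run wild type, and SMAA/EYFP 2 was the highest array. The Gpm6a log2 difference was 0.72 ± 0.34 from all wild type (0.40 without SMAA/EYFP 2) and 0.25 ± 0.30 with the block. The second Gpm6a probe set was at 0.62 ± 0.38 from all wild type, or 0.19 without SMAA/EYFP 2, and at 0.13 ± 0.36 with the block. Bnc1 read 1266, 1885 and 996 in SMAA/EYFP, against 1025, 1208 and 1066 in second-run wild type, which overlap. Its log2 difference was 0.91 ± 0.35 from all wild type and 0.27 ± 0.22 with the block, so the value against all wild type was the larger. Muc16 was at 0.67 ± 0.30 and 0.24 ± 0.26, and Lrrn4 at 0.57 ± 0.36 and 0.08 ± 0.34, in the same fits. Without SMAA/EYFP 2 the Lrrn4 value from all wild type was 0.26, and without SMAA/EYFP 3 it was 0.90. Wt1 was at -0.09 ± 0.28 and -0.22 ± 0.33, and Nkain4 at 0.03 ± 0.16 and -0.01 ± 0.19.

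In SMAA/EYFP against wild type, 3 of 10 member probe sets were higher without overlap, against 1.72% of all tested probe sets, and against second-run wild type the same 3, those of Msln and Upk3b, did so, where the share was 5.61%. None of the 22518 probe sets passed limma's threshold (0%), 1082 (4.81%) had an unadjusted p under 0.05, and 5 member probe sets were among those. With the run as a block 988 (4.39%) had an unadjusted p under 0.05, and the members among them were the 2 probe sets of Upk3b. With arrays centred on their median in place of quantile normalization, 5 probe sets passed, none of them a member. The standard errors of 0.22 to 0.36 with the block for Gpm6a, Lrrn4, Muc16 and Bnc1 leave room for differences of that order, so equal levels are not shown. Comparisons of both reporters share the wild-type arrays. Urothelial markers were higher than wild type in 12 of 12 genes in SMAA/EYFP (median 0.34) and in 12 of 12 in SMGA/EGFP (median 0.21), with 0 past the threshold in each, and their part in the Upk3b values was not tested.

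**Figure D2:**
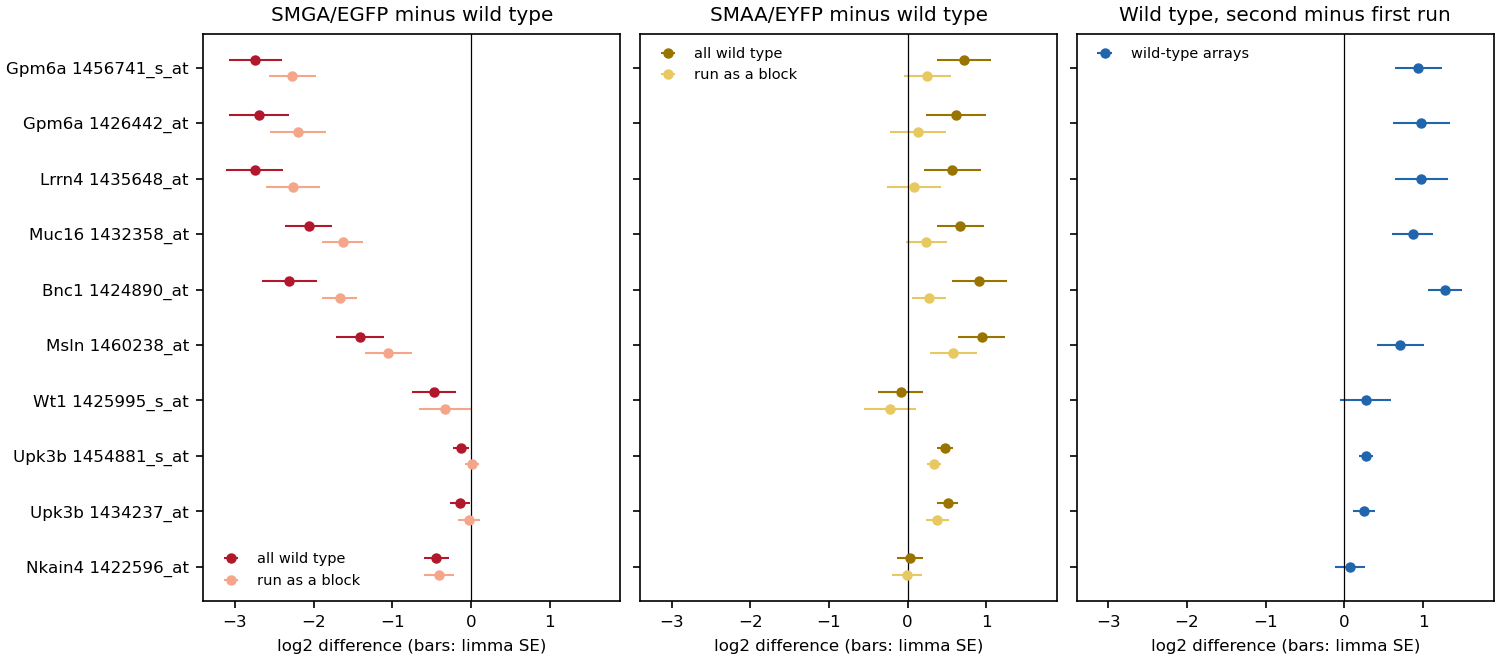
Log2 differences of the 10 member probe sets with limma's standard error, for SMGA/EGFP minus wild type, SMAA/EYFP minus wild type (dark: all wild-type arrays; pale: the run entered as a block), and for second-run minus first-run wild type. The block moved the SMGA/EGFP values towards 0, from -2.74 to -2.27 for Gpm6a, and left SMAA/EYFP values of 0.58 for Msln and 0.34 for Upk3b.

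Set side by side, the mean levels had 1 order in 7 of the 10 probe sets: SMGA/EGFP was lowest, then first-run wild type, second-run wild type and SMAA/EYFP. For Gpm6a these means were log2 7.83 ± 0.30, 10.10 ± 0.40, 11.04 ± 0.44 and 11.29 ± 0.57 (SD, n = 3 each). For Msln they were 8.97 ± 0.54, 10.02 ± 0.53, 10.73 ± 0.20 and 11.32 ± 0.36. Second-run wild type and SMAA/EYFP were neighbours within their spread for Gpm6a and not for Msln, whose arrays did not overlap. Wt1 and Nkain4 had the order SMGA/EGFP, first-run wild type, SMAA/EYFP and second-run wild type. SMAA/EYFP 2 was the highest of the 12 arrays for 9 of 10 probe sets, and SMGA/EGFP 1 and 2 were the lowest for 6 and 3.

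Within the sets the genes did not all vary together. Covariation was taken over the deviations of the 12 arrays from the means of their 4 sets (SMGA/EGFP, SMAA/EYFP, and wild type of each run), with 1 probe set per gene, so that neither group nor run entered. Gpm6a and Lrrn4 had Pearson r = 0.92 and Spearman rho = 0.91 by this measure, and 0.0222% of 22516 other probe sets had a higher r with Gpm6a. Muc16 varied with Bnc1 (r = 0.76, rho = 0.69), Nkain4 (0.75, 0.78), Msln (0.65, 0.59) and Upk3b (0.63, 0.70). Many other probe sets followed these genes more closely: 1.45% of 22517 had a higher r with Muc16 than Bnc1 did. The share above Muc16 was 0.595% for Bnc1, 1.27% for Nkain4 and 3.11% for Msln, whose best partner it was. For Upk3b, whose best partner was Nkain4 (r = 0.74), the share was 1.05%. Msln was nearly unrelated to Gpm6a (r = 0.12) and Lrrn4 (r = 0.08), although the means of all 3 genes had the same order over the sets. Wt1 ran with Lrrn4 (r = 0.50) and Gpm6a (r = 0.43) and slightly against Muc16 (r = -0.29), Nkain4 (-0.26), Msln (-0.25) and Upk3b (-0.20), and 13.7% of all probe sets had a higher r with Wt1 than its best partner here. These values describe the 12 arrays, which share the set means taken out, and carry no test. They include the SMGA/EGFP arrays, where the means of Gpm6a, Lrrn4, Muc16 and Bnc1 lay below the filter's cut of log2 8.02.

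Over all 28 pairs r ran from -0.29 to 0.92 with a median of 0.42, and 24 were above 0. The 10 pairs among Gpm6a, Lrrn4, Muc16, Bnc1 and Msln had a median of 0.60, or 0.49 on values without quantile normalization. The 18 pairs with Wt1, Upk3b or Nkain4 had a median of 0.42. By gene, the 7 pairs with Wt1 had a median of -0.20, those with Upk3b 0.37 and those with Nkain4 0.58. The median over the 28 pairs was 0.58 without wild type 4, where Upk3b and Msln had r = 0.78, against 0.42 with it, and Upk3b and Bnc1 had 0.71, against 0.37 with it. On wild type 4, Upk3b lay 0.17 above its set mean on the log2 scale, while Msln and Bnc1 lay at -0.23 and -0.14. The correlation of both probe sets of a gene was 0.83 for Gpm6a and 0.80 for Upk3b, which is what 2 measurements of the same RNA gave.

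The 2 patterns can be read from single arrays. SMAA/EYFP 2 was above its set mean in all 8 genes, by 0.08 for Upk3b to 0.65 for Gpm6a, and SMAA/EYFP 3 was below it in all 8, by -0.14 for Upk3b to -0.66 for Lrrn4. SMGA/EGFP 2 split the genes: Lrrn4, Wt1 and Gpm6a were at -0.58, -0.60 and -0.31, while Muc16, Msln and Bnc1 were at 0.48, 0.26 and 0.10. For Lrrn4, Gpm6a, Muc16 and Bnc1 these are deviations of low values, and whether they exceed the noise of such values was not tested. Wild type 3 had Wt1 at -0.65 with Lrrn4, Nkain4 and Gpm6a at 0.40, 0.39 and 0.36. Wild type 1 had Wt1 at 0.49 and Msln at -0.60, with Lrrn4 at 0.00 and Gpm6a at 0.08.

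Across the 6 wild-type arrays alone, Gpm6a and Lrrn4 had r = 0.99 (exact permutation test, two-sided, p = 0.00139; adjusted over 28 pairs, p = 0.0389) and rho = 1 (exact p = 0.00278; adjusted p = 0.0778). Without the 2 arrays farthest from the Gpm6a median r was 0.98. Of the 28 pairs, this was the only one past an adjusted p of 0.05 by r. None passed by rho, but there the smallest exact p of 6 arrays is the 0.00278 of rho = 1. A single pair could therefore not pass by rho over 28 pairs, and nothing is read from that count. Wild-type arrays fall into the 2 runs for these genes, and the permutation treated all 6 as exchangeable. An r over the 6 and its p therefore hold the difference between the runs, and 0.00139 is the smallest p that 6 arrays can give by r. Muc16 and Bnc1 had 0.94 here, against 0.76 within the sets, and Gpm6a and Muc16 had 0.88, against 0.39 within the sets. No run alone has enough arrays for a test.

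**Figure D3:**
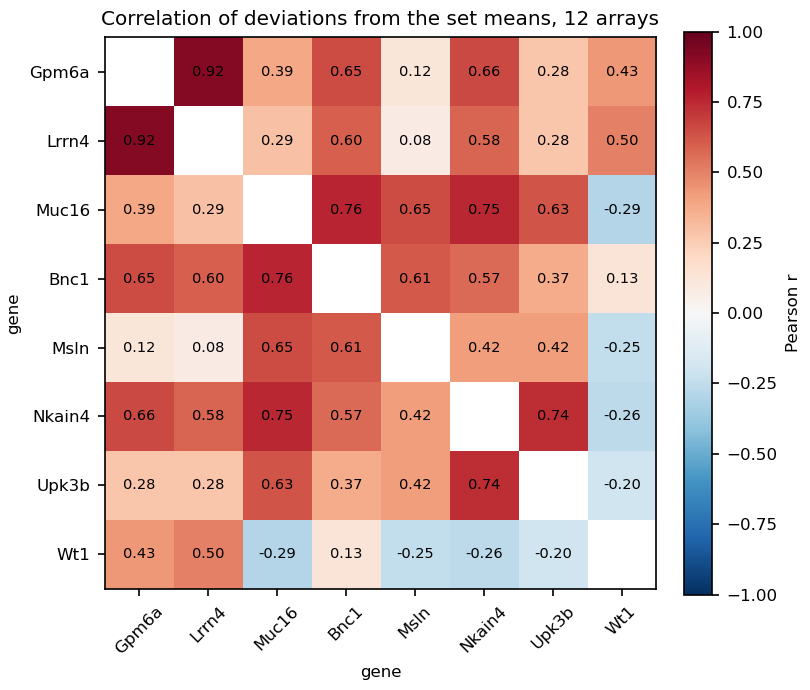
Pearson r between the 8 genes over the deviations of the 12 arrays from the means of their 4 sets, on a scale from -1 (blue) to 1 (red). Gpm6a and Lrrn4 share the highest value, 0.92, and Wt1 is the gene with most values below 0.

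**Figure D4:**
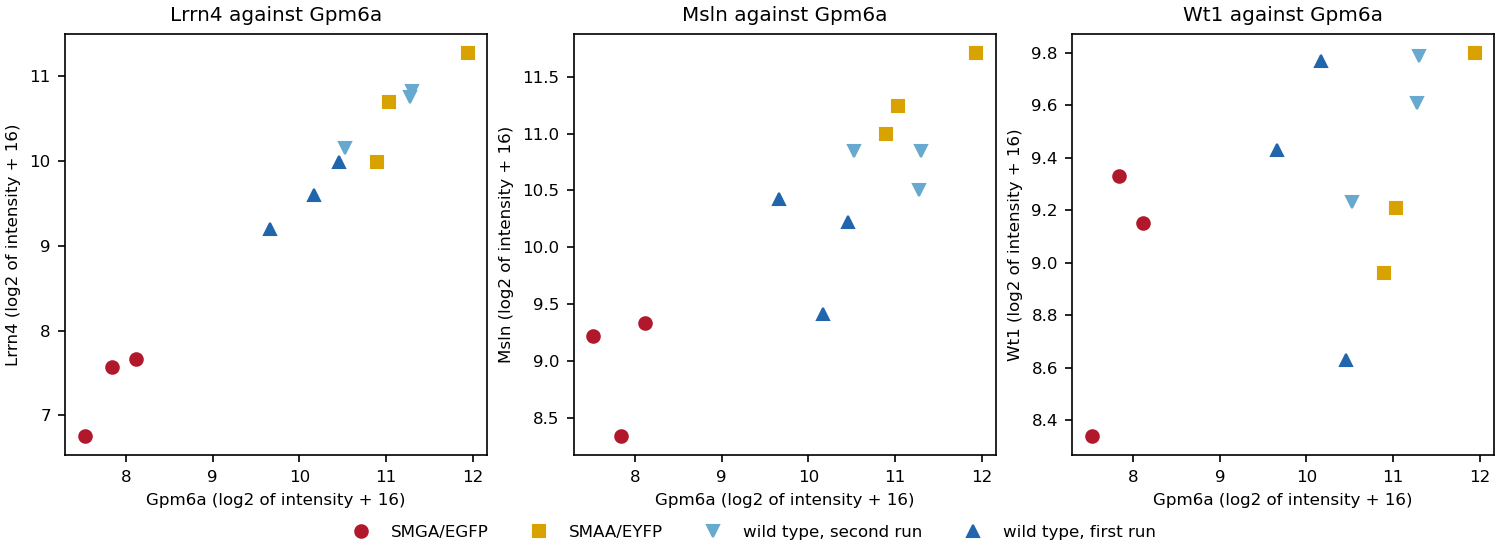
Levels of Lrrn4, Msln and Wt1 against Gpm6a on the 12 arrays, as log2(intensity + 16), with a mark for each set. Lrrn4 follows Gpm6a both between and within sets, Msln follows it between sets (r = 0.12 within them), and the Wt1 ranges of the sets overlap, from 8.34 to 9.33 in SMGA/EGFP and 9.23 to 9.79 in second-run wild type.

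Of 30 other genes of mesothelium, chosen from general knowledge with the results above known, 28 had a probe set and 23 were tested. In SMGA/EGFP 17 of the 23 were lower and 6 higher than wild type, with 0 past limma's threshold (0.0622% of all tested probe sets passed, and 0.0444% with the run as a block) and a median log2 difference of -0.21, against -0.01 over all. Those of largest difference were Dmkn, a secreted epithelial protein, at -1.36 ± 0.28 (limma adjusted p = 0.227), Has1, a hyaluronan synthase, at -1.16 ± 0.35 (0.653), and Cldn15, a tight junction claudin, at -1.06 ± 0.24 (0.351). Slpi, a secreted protease inhibitor, was at -1.04 ± 0.32, Myrf, a membrane-bound transcription factor, at -0.70 ± 0.30, and Podxl, a sialomucin, at -0.35 ± 0.20. With the run as a block Slpi was at -0.52 ± 0.25 and Cldn15 at -0.72 ± 0.21, while Has1 stayed at -1.16 ± 0.42. Dmkn was at -0.98 ± 0.25, Myrf at -0.75 ± 0.36 and Podxl at -0.36 ± 0.24 in that fit. The keratins Krt8, Krt18 and Krt19, which urothelium also makes, were at 0.00 ± 0.08, 0.10 ± 0.10 and 0.00 ± 0.13. They were not the only genes of the list near 0. Aldh1a2 was at 0.03 ± 0.14, Ezr at 0.03 ± 0.13, Cav1 at -0.01 ± 0.05 and Efemp1 at -0.03 ± 0.11.

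In SMAA/EYFP 14 of the same 23 genes were higher and 9 lower than wild type, with 0 past the threshold and a median of 0.07. Those of largest difference were Slpi at 1.02 ± 0.32, Anxa8, an annexin, at 0.82 ± 0.24, Has1 at 0.77 ± 0.35 and Dmkn at 0.73 ± 0.28 (limma adjusted p = 0.991 for each). With the run as a block Slpi was at 0.50 ± 0.25, Anxa8 at 0.59 ± 0.26, Has1 at 0.76 ± 0.42 and Dmkn at 0.34 ± 0.25. Between the runs of wild type 13 of the 23 genes were higher and 10 lower in the second run. Their median log2 difference was 0.01, against 0.02 over all tested probe sets. Of the genes of largest difference named above, Slpi was at 1.04 ± 0.25, Dmkn at 0.77 ± 0.25, Cldn15 at 0.68 ± 0.21 and Anxa8 at 0.45 ± 0.26. Has1 was at 0.01 ± 0.42, Podxl at -0.01 ± 0.24 and Myrf at -0.09 ± 0.36. The mean deviation over the 23 genes was -0.33 to -0.24 in SMGA/EGFP and 0.16 to 0.31 in SMAA/EYFP. It was 0.07 to 0.15 in second-run and -0.11 to 0.08 in first-run wild type, ranges that overlap. The order of the sets was that of most members.

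Markers of other cell types stood beside these values in SMGA/EGFP against wild type. With the run as a block, median log2 differences were 0.18 over 12 urothelial, 0.03 over 10 smooth muscle, -0.01 over 9 fibroblast, -0.26 over 9 endothelial, -0.15 over 8 leukocyte, 0.00 over 3 adipocyte and 0.00 over 9 ganglion genes, and -1.34 over the 8 members. Without the block the ganglion genes were at 0.98. No gene of these 7 lists passed the threshold in either fit, and their part in the members' values was not tested.

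The 10 genes outside the members whose deviations from the set means followed the mean deviation of the 8 members best, among 20079 probe sets with 1 symbol, were Agpat5 (r = 0.94), Lpl (0.91), Vnn1 (0.91), Man1c1, Fzr1, Rfc1, Ciao2a, Mxd4, C2 and Pcdhb16 (0.86). They were chosen by likeness within the sets, so their differences between groups were not used to choose them. As the highest of 20079, such values of r can arise from the selection alone, and they carry no test. Vnn1 and C2 are singled out below because their differences from wild type in SMGA/EGFP were the largest of the 10. None of the 10 passed in SMGA/EGFP against wild type. Vnn1, a pantetheinase anchored at the cell surface, read 411 to 421 in SMGA/EGFP and 581 to 719.5 in wild type, with a log2 difference of -0.69 ± 0.17 (limma adjusted p = 0.509). Complement component C2 was at -0.75 ± 0.27 (0.709), and the other 8 lay between -0.24 and 0.25. For Vnn1 the log2 difference was 0.43 in SMAA/EYFP against wild type and 0.27 in second-run against first-run wild type, and for C2 these were 0.16 and 0.19. Over the other 8 genes they ran from -0.33 (Fzr1) to 0 (Man1c1) and from -0.20 (Pcdhb16) to 0.55 (Mxd4).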

How the data were processed

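RNA of 12 whole bladders was measured on one-colour arrays. The authors deposited 1 intensity per probe set and array on a linear scale; GCOS is named in the submitters' processing notes, and its version, detection calls and filters are not given in the sources used here. The trimmed mean, without the lowest and highest 2% of probe sets, was 1499.8 to 1500.01 on every array, which is how a single scaling factor per array would leave it.

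Values were converted to log2(intensity + 16) and quantile-normalized. The 22518 of 45037 probe sets other than 64 controls whose mean lay above the median of all means entered two-sided tests by lmFit and eBayes (with trend) of limma 3.58.1, run under R 4.3.3, with all 12 arrays and Benjamini-Hochberg adjustment over all of them. Names came from GEO's platform annotation; matching Entrez numbers to RefSeq (GRCm38.p6) changed 0 symbols. The fit was tested on simulated data. Members, lists and alternatives were chosen with earlier results of these data known. Named genes were all members, the 10 genes most like them within the sets, and those of the other mesothelium list with the largest differences (6 in SMGA/EGFP, 4 in SMAA/EYFP). The keratins and the other genes near 0 of that list were named after their values were seen, as were the marker genes. The number of arrays limits the precision, and p-values measure the spread between these samples, since nothing says they came from separate litters.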

Additional observations from a re-analysis of the deposited data

Results flagged for a closer look

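Msln went in opposite directions under the 2 reporters when each was set against the wild type of its own run. Every SMGA/EGFP array lay below the first-run wild-type mean, by -1.05 on average on the log2 scale, and every SMAA/EYFP array lay above the second-run wild-type mean, by 0.58. The difference between these effects was -1.64, and it was not tested, because the members were taken up with the SMGA/EGFP levels known. No wild-type array stood apart from the other 5 for any member probe set by Dixon's test, which flags about 1 in 20 groups by chance. The test took the wild-type arrays of both runs together, so a difference between the runs widened their range. An array apart only within its own run could therefore be missed.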

How the results depend on the processing

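Each member difference was recomputed under up to 10 other settings and without each of the 12 arrays, and 602 of 617 values kept their direction and their side of the threshold, or, in SMGA/EGFP, moved by less than the spread between arrays. The other 15 were values of Nkain4, Wt1, Upk3b and Bnc1. Among the 617 are values without an array that the comparison does not use, whose log2 difference could hardly move. Some values that kept direction and side still moved by over 1.5 times: with the run as a block, Gpm6a, Lrrn4, Muc16, Bnc1 and Msln in SMAA/EYFP; without SMAA/EYFP 2, Gpm6a (0.40 and 0.19) and Lrrn4 (0.26) there; without wild type 2, the second Gpm6a probe set there (0.40); without wild type 1, Msln between the runs (0.41); without wild type 4, Upk3b between the runs by its dimmer probe set (0.13) and in SMGA/EGFP by both (-0.07); without SMGA/EGFP 1, the dimmer Upk3b probe set there (-0.07); and without SMGA/EGFP 2, Wt1 there (-0.17). Nkain4 in SMAA/EYFP was at -0.01 with the run as a block and within the same run, and -0.05 to 0.14 without single arrays; between the runs of wild type it was -0.05 to 0.27 without single arrays. Wt1 was at -0.32 to 0.09 in SMAA/EYFP and at -0.05 to 0.52 between the runs without single arrays. Upk3b in SMGA/EGFP was at 0.01 by its brighter probe set with the block and within the run. Bnc1 in SMGA/EGFP was at -1.67 with the block, and between the runs it was at 1.20 to 1.36 without single arrays. Probe sets called in SMAA/EYFP against wild type were 0, or 5 with arrays centred on their median. Between the runs of wild type they were 0, or 1 without a filter, and 0 to 430 without single arrays. In SMGA/EGFP against wild type they were 14, or 5 with the 75th percentile filter, 8 with only the arrays compared, 1 within the same run and 6 to 20 without single arrays (6 without SMGA/EGFP 2, and 9 without SMGA/EGFP 1 or wild type 3, 4 or 6). In SMGA/EGFP against SMAA/EYFP they were 18, or 10 with the 75th percentile filter and 4 to 22 without single arrays, with 4 without SMAA/EYFP 2 and 9 without SMGA/EGFP 2. The median r over the 28 pairs was 0.42, 0.41 as deposited and 0.58 without wild type 4. The causes of these changes were not tested, except for the higher filter. At the 75th percentile fewer probe sets were tested, and of the members only Upk3b and Nkain4 remained. Gpm6a, Lrrn4, Muc16, Bnc1, Msln and Wt1 were dropped there, so they could not be among the 5 or 10 called. No paired analysis was possible because the labels give no replicate numbers. Detection calls were not used here, so whether the lowest SMGA/EGFP levels of Gpm6a, Lrrn4, Muc16 and Bnc1 lie above background is unknown, and folds against them may be compressed.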
